A study of Mus musculus with 18 samples.

Results

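A set of 8 genes was read almost entirely in one of 2 mouse embryonic stem (mES) cell lines, a wild-type (WT) line and a *Tet2*-knockout (KO) line, in sequencing of newly made RNA. *Ubd*, *Olfr94*, *Apoa2*, *Olig2* and the pseudogene *Eif3s6-ps2* were read in WT, and the pseudogenes *Gm6594*, *Gm8210* and *Gm13137* in the line labelled *Tet2*-KO. These 8 of 54446 counted genes were selected on that contrast in these same libraries, and their rows were found by Ensembl identifier through the GENCODE M21 annotation. The difference between the lines on the 8 genes is therefore described and not tested. Tests between the lines were made on other genes, namely the genes beside them, the coding genes most like the pseudogenes, and lists of related genes and cell type markers. Some of these were themselves read almost entirely in a single line, as said below. Labelling time was tested within the line that read each gene. In all, 4 of the 8 are annotated as protein-coding and 4 as processed pseudogenes, and they lie at 7 places in the genome, because *Ubd* and *Olfr94* are neighbours.

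Cells of each line were fed 1 mM 5-ethynyl uridine (EU), a uridine analogue that is built into RNA as it is made, for 10, 20 or 40 min, and the labelled RNA was captured and sequenced after ERCC synthetic RNAs had been added in proportion to total RNA. Each of the 6 groups had 3 replicates, which makes 18 libraries and 9 per line. Both lines came from another laboratory, grew with LIF, CHIR99021 and PD0325901, and were passaged off feeder cells before use. There was 1 line per genotype and the replicates were dishes, so the loss of *Tet2* and any other difference between the lines cannot be told apart, and p-values measure the spread between dishes only. Between 17931614 and 23069143 reads per library fell on genes and between 44162 and 512186 on ERCC sequences.

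The targeted gene itself was not lost from the counts. *Tet2* had 13117 to 17092 reads in WT libraries and 9730 to 13011 in those labelled *Tet2*-KO. The sources used here do not say which part of the gene was deleted, so a total over the gene cannot check the label. Y-linked genes separated the lines, since *Ddx3y*, *Uty*, *Kdm5d* and *Eif2s3y* together made up 45.8 to 58.2 reads per 1000000 gene reads (RPM) in WT and 0.781 to 2.28 in *Tet2*-KO. Of 10 stem cell markers, 9 had at least 10 reads in every library, and *Sox2* was at 0 in all of them. Their summed share was 3119 to 3304 RPM in WT and 2241 to 2371 in *Tet2*-KO. The markers did not differ alike. *Zfp42* had 10658 to 12190 reads in WT and 1850 to 2361 in *Tet2*-KO, while *Pou5f1* had 1642 to 2484 and 1438 to 2224, which overlapped. Whether these differences between the lines bear on the results below was not tested.

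*Ubd* encodes FAT10, a ubiquitin-like protein that marks proteins for the proteasome and is induced by inflammatory cytokines. *Olfr94* belongs to the olfactory receptors, G-protein-coupled receptors best known from sensory neurons of the nose, and lies with other receptors of that family near the major histocompatibility complex. *Apoa2* encodes apolipoprotein A-II, a liver-made protein of high-density lipoprotein. *Olig2* encodes a basic helix-loop-helix factor of the motor neuron and oligodendrocyte lineages. A processed pseudogene is a copy of a spliced messenger RNA put back into the genome, and it often lacks the promoter of its source and resembles that source closely enough for reads to be hard to place.

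**Figure D1:**
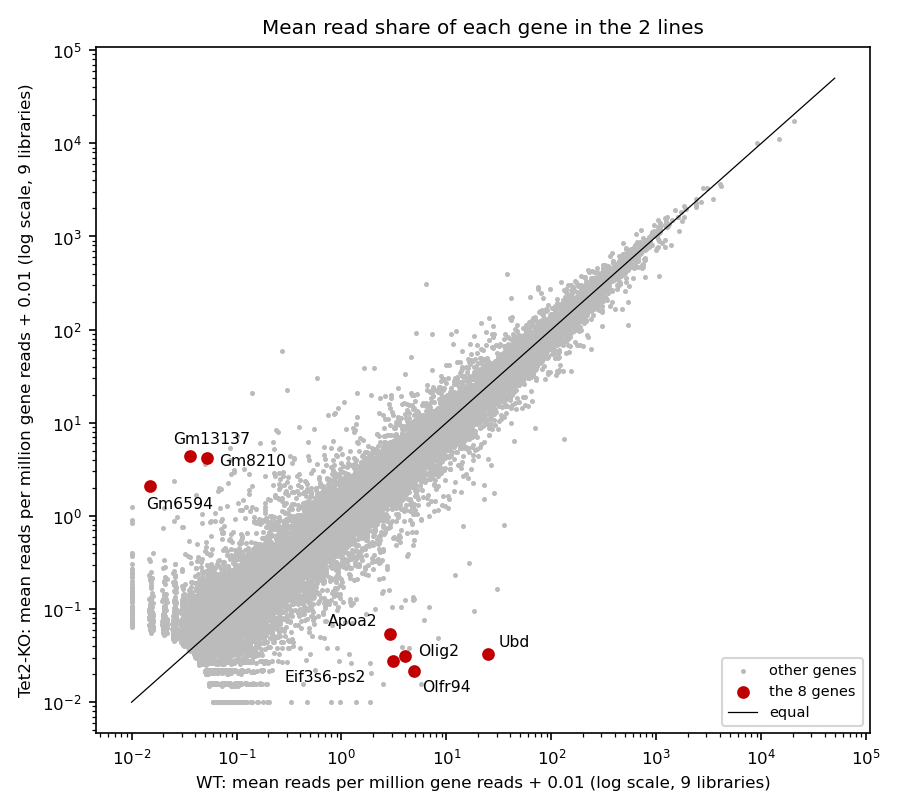
Mean reads per 1000000 gene reads (RPM), plus 0.01, of each gene with at least 10 reads over the 18 libraries, in WT (x axis) and *Tet2*-KO (y axis), on log scales, with the 8 genes in red and the line of equal shares in black. The 5 genes of the WT line lie below the line at 2.92 to 24.9 RPM in WT, and the 3 of the *Tet2*-KO line lie above it at 2.07 to 4.33.

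RPM values were divided by gene length in kb to compare the 8 genes, and the length was the whole gene span, because the counts behave as counts over introns and exons. In the line that read it, *Gm13137* had the highest median at 12.45, with 8.12 to 20.1 over 9 libraries. *Ubd* followed at 11.1 (10.3 to 12.5), and its range lay inside that of *Gm13137*. *Gm6594* was at 7.15 (5.36 to 9.165) and *Gm8210* at 7.07 (5.25 to 16.85), which overlapped. *Eif3s6-ps2* was at 2.33 (1.14 to 3.49) and *Apoa2* at 2.25 (1.47 to 2.77), which also overlapped. *Olig2* at 1.32 (0.865 to 1.45) and *Olfr94* at 1.10 (0.574 to 1.75) were the lowest. In that order the ranges of neighbours were separate between *Ubd* and *Gm6594*, between *Gm8210* and *Eif3s6-ps2*, and between *Apoa2* and *Olig2*.

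**Figure D2:**
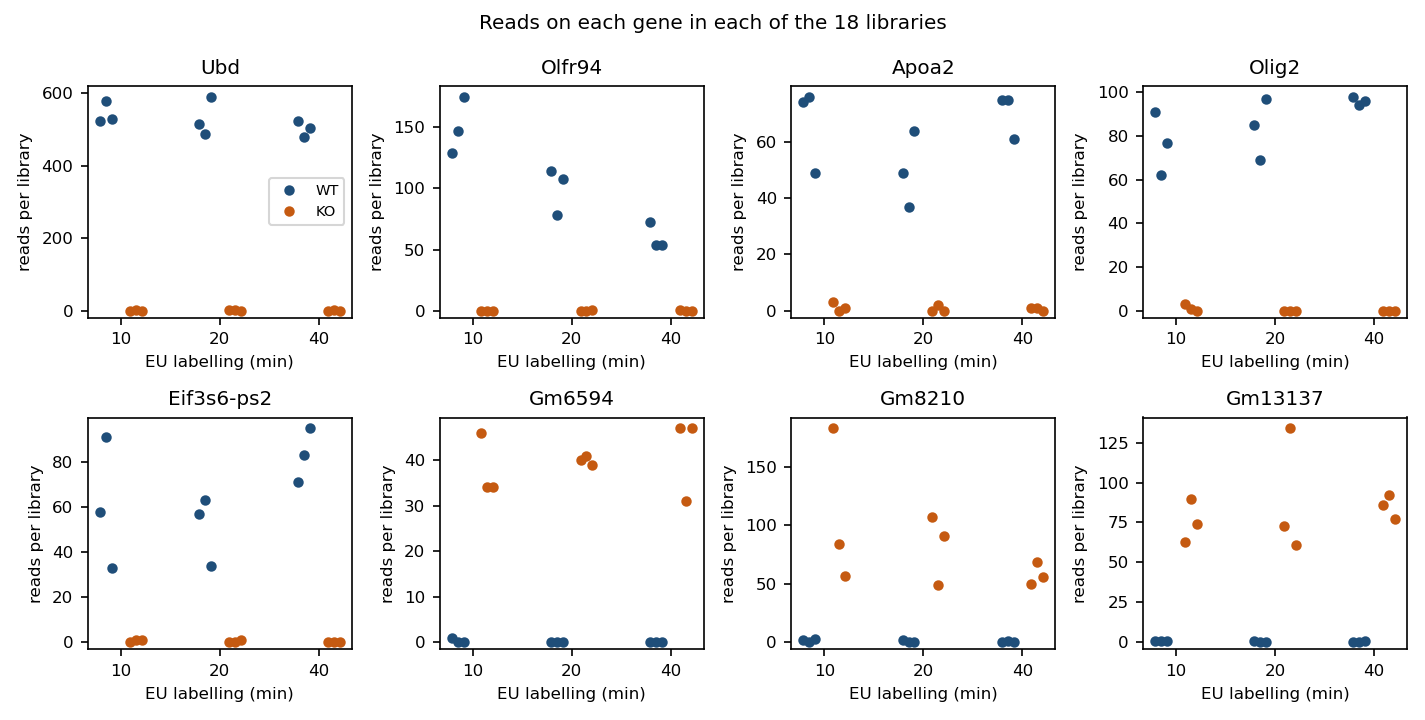
Reads on each of the 8 genes (y axis, from 0) in each library against EU labelling time (x axis, min), with WT in blue and *Tet2*-KO in orange and 1 point per library. No library of one line overlaps any of the other on these genes, on whose difference they were selected, and the highest count in the line that did not read a gene was 3.

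*Ubd* lies on chromosome 17 of mm10, from 37193892 to 37196095 on the plus strand, and has 2 exons. In WT it had 525, 578 and 529 reads at 10 min, 515, 488 and 591 at 20 min, and 525, 481 and 505 at 40 min. In *Tet2*-KO it had 0, 1 and 0, then 1, 1 and 0, then 0, 1 and 0. Its coefficient of variation over the 9 WT libraries in RPM, 6.27%, was the lowest of the 8 genes. It also had the most reads, and counting error is relatively smaller at higher counts. Pooled over libraries *Ubd* had 4737 reads against 4, or 1083 times as large a share in WT, with an exact 95% counting interval of 423 to 3977. Such intervals, here and for the rest of the 8 genes, cover counting error only, and reads are not independent molecules. They do not test the difference between the lines, on which the genes were selected.

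The 300 bases around the RefSeq start of *Ubd*, 250 before it and 50 after, are shown with those of *Olig2* because they differ most in CG dinucleotides, the sites of DNA methylation, which are in capitals. They are the RefSeq GRCm38.p6 windows chr17:37193642-37193941 (plus strand) and chr16:91225300-91225599 (plus strand). The *Ubd* window held 0 CG, and 5.43% of 32851 such windows held no more. The *Olig2* window held 25 CG, and 83.1% held no more, against a median of 7 over all windows. RefSeq starts can differ from the ends of the GENCODE spans given here, as they do for *Olig2* and for *Olfr94*, whose window lies inside its GENCODE span.
Ubd: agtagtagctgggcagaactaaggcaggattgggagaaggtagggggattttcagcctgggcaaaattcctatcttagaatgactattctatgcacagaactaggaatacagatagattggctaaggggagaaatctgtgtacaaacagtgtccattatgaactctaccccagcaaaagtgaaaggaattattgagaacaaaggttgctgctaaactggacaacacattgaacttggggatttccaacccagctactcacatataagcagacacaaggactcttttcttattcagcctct
Olig2: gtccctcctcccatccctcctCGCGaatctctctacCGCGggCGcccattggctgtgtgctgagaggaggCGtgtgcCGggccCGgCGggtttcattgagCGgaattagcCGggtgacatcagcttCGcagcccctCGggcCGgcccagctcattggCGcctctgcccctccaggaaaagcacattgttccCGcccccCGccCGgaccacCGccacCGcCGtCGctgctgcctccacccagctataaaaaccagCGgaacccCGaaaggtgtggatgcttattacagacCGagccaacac
The first windows of *Olfr94* and *Apoa2* held 3 CG each, a number not exceeded by 31.4% of windows. The letters TATAAA, searched on both strands, were in the windows of *Olfr94* and *Olig2* and in the first of the 2 *Apoa2* windows. They were not in the *Ubd* window, and were in 13.6% of all windows. DNA methylation was not measured in these libraries.

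*Olfr94* lies 329 bases beyond *Ubd* on the opposite strand, from 37196425 to 37200994, so that the ends of both genes face each other. The WT libraries had 129, 147 and 175 reads at 10 min, 114, 78 and 108 at 20 min, and 73, 54 and 54 at 40 min. The *Tet2*-KO libraries had 1 read in 1 library at 20 min and 1 at 40 min, and 0 in the other 7. The pooled share was 426 times as large in WT (932 against 2 reads, interval 118 to 3524). Unlike *Ubd*, it fell within WT as labelling went on: relative to the other genes its share at 40 min was below that at 10 min by a log2 difference of -1.17 ± 0.21 (SE), with adjusted p = 3.6e-05 in edgeR's quasi-likelihood test with TMM scaling. By that test 22% of 19910 tested genes had a lower share at 40 than at 10 min in WT.

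The ratio of *Olfr94* to *Ubd* reads within a library needs no scaling. After 10 min of labelling it was 0.277 ± 0.047 (SD, n = 3), after 20 min 0.188 ± 0.031 and after 40 min 0.119 ± 0.017. The 3 libraries at 10 min (0.246 to 0.331) did not overlap those at 40 min (0.107 to 0.139), and the two-sided exact permutation p was 0.1, the smallest that 3 against 3 allows.

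The nearest gene before *Ubd* is *Olfr753-ps1*, a receptor pseudogene that some mouse strains keep intact, 8.16 kb away. It had 12 to 22 reads in WT libraries (median 14) and 0 to 2 in *Tet2*-KO, and the ranges did not overlap. Its level per ERCC read was lower in *Tet2*-KO by a log2 difference of -3.89 ± 0.56 (SE; edgeR, adjusted p = 2.6e-11), though it passed the filter on low counts through its WT libraries. Without *Tet2*-KO 40 min replicate 1 the difference was -5.06, and it was called lower without any single library. Over the 19910 tested genes 4.15% were called lower and 80.5% higher on this scale, with a median log2 difference of 0.695, so that a gene of unchanged share counts as higher. With TMM scaling, which compares shares, 27.9% were called lower and 28.6% higher and the median was 0.00. On that scale *Olfr753-ps1* was also called lower (log2 -4.48 ± 0.48 SE, adjusted p = 6.9e-10).

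Further out the locus was not uniformly low. The nearest gene on the other side of *Olfr94*, *Olfr95*, had at most 11 reads in WT and 3 in *Tet2*-KO and was not tested. The nearest tested gene there, *Gm20429*, had 4 to 30 reads in WT and 6 to 16 in *Tet2*-KO and was not called on either scale (adjusted p = 0.17 with ERCC and 0.46 with TMM). *Gabbr1*, a subunit of the GABA-B receptor, had a lower share in *Tet2*-KO (TMM log2 -0.24, adjusted p = 3.1e-12) and a higher level per ERCC read (log2 0.45, adjusted p = 1.6e-16). Of 15 tested genes within 300 kb of *Ubd*, 6 had a lower share and 2 a higher one with TMM, and 1 was lower and 8 higher with ERCC. Over all tested genes 27.9% were lower and 28.6% higher with TMM, and 4.15% and 80.5% with ERCC.

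**Figure D3:**
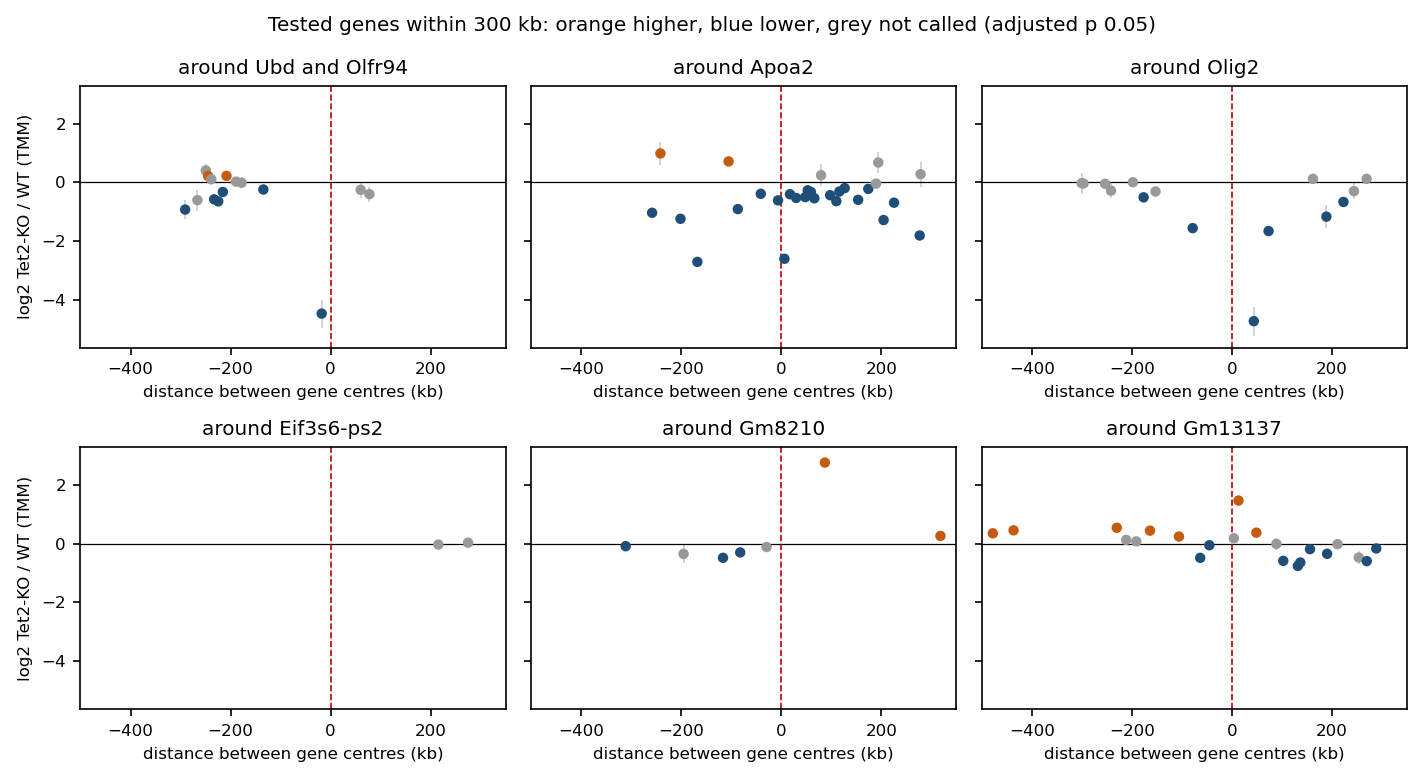
log2 ratio of *Tet2*-KO to WT with TMM scaling (y axis, bars are SE) of tested genes within 300 kb of each gene, against the distance between gene centres (x axis, kb; red dashed line, the gene itself, which is not drawn). Blue points were called lower, orange higher and grey neither, and the plot shows *Olfr753-ps1* beside *Ubd* and *Olig1* beside *Olig2* far below 0 and *Gm29040* beside *Gm8210* far above it.

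*Apoa2* lies on chromosome 1, from 171225054 to 171226379 on the plus strand. WT libraries counted 74, 76 and 49 reads at 10 min, 49, 37 and 64 at 20 min, and 75, 75 and 61 at 40 min. *Tet2*-KO libraries counted 3, 0 and 1, then 0, 2 and 0, then 1, 1 and 0. It shared with *Gm8210* the largest number of reads in the line that did not read it, 8, and the pooled share was 64.0 times as large in WT (interval 32.3 to 149).

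The genes beside *Apoa2* had lower shares in *Tet2*-KO too, but were read in both lines. *Fcer1g*, the common signalling chain of Fc receptors, lies 3.19 kb beyond it and had 83 to 157 reads in WT and 14 to 24 in *Tet2*-KO. It was called lower on both scales (log2 -1.92 ± 0.15 SE with ERCC, adjusted p = 4.2e-30, and -2.61 ± 0.13 SE with TMM, adjusted p = 1.3e-18), and at 20 min alone the ERCC value was -2.57. *Tomm40l*, a relative of a pore subunit of the mitochondrial outer membrane, lies 2.54 kb before it and had 117 to 225 against 71 to 107 reads. Its share was lower (TMM log2 -0.61 ± 0.11 SE, adjusted p = 6.5e-06), while its level per ERCC read was not called (adjusted p = 0.48).

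Within 300 kb of *Apoa2* 22 of 28 tested genes, or 78.6%, had a lower share in *Tet2*-KO, and 2 had a higher one, with a median TMM log2 difference of -0.47, beside 27.9% and 28.6% of all tested genes. These genes lie side by side and some share a strand or overlap, so they are not independent. *Fcgr3*, an activating receptor for antibodies on immune cells, had 78 to 277 reads in WT and 6 to 32 in *Tet2*-KO (TMM log2 -2.72 ± 0.16 SE, adjusted p = 4.8e-16). *Fcgr4* fell by 1.24 on the same scale and *Fcgr2b* by 1.04. *Sdhc*, a subunit of succinate dehydrogenase that all cells use, fell by 0.91. On the ERCC scale 6 of the 28 genes were called lower and 14 higher, beside 4.15% and 80.5% of all tested genes.

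*Olig2* lies on chromosome 16, from 91225457 to 91228677 on the plus strand. Its reads in WT were 91, 62 and 77 reads at 10 min, 85, 69 and 97 at 20 min, and 98, 94 and 96 at 40 min. In *Tet2*-KO its only reads were 3 in one 10 min library and 1 in another, and the other 7 libraries had 0. The pooled share was 176 times as large in WT (769 against 4 reads, interval 68.4 to 647).

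*Olig1*, its paralogue and the nearest tested gene 41.1 kb beyond it, had 7 to 36 reads in WT (median 18) and 0 to 3 in *Tet2*-KO, and the ranges did not overlap. It was lower by log2 -4.13 ± 0.54 (SE; ERCC, adjusted p = 2.1e-13) and by -4.74 ± 0.50 (SE; TMM, adjusted p = 4.4e-10), having passed the filter through WT. The ERCC value moved to -5.49 without *Tet2*-KO 20 min replicate 2, to -5.30 without *Tet2*-KO 40 min replicate 2, to -2.76 at 20 min alone and to -5.17 at 40 min alone, and it was called lower in each. The nearest gene before *Olig2*, the untested *Gm49614* at 2.53 kb, had 20 reads over the WT libraries and 0 over those of *Tet2*-KO, and the nearest beyond it, *Gm37016*, had 5 and 0. The noncoding *Gm41492*, 66.4 kb before *Olig2*, had 59 to 127 against 17 to 38 reads and was lower on both scales (ERCC log2 -0.87 ± 0.15 SE, adjusted p = 1.6e-08). The noncoding *Gm15966*, which overlaps the end of *Olig1*, had a share lower by log2 -1.66 ± 0.14 (SE; TMM, adjusted p = 2.4e-12). Beyond these, *Ifnar1* and *Ifnar2*, the subunits of the type I interferon receptor, were not called with TMM (adjusted p = 0.12 and 0.27). With ERCC both were higher (log2 0.82 and 0.81, adjusted p = 5.0e-26 and 3.6e-13). Between them *Il10rb*, with 1 to 9 reads in *Tet2*-KO, and *Gm49625* had lower shares (TMM log2 -1.17 and -0.67, adjusted p = 0.013 and 1.8e-04). *Gm49626*, also between them, was not called (TMM adjusted p = 0.34). Of 15 tested genes within 300 kb, 6 had a lower share and 0 a higher one with TMM (0 also at an unadjusted p under 0.05 and with DESeq2's own size factors), beside 27.9% and 28.6% of all tested genes. With ERCC 3 were lower and 5 higher, beside 4.15% and 80.5%.

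The 3 pseudogenes read in *Tet2*-KO differed in how far their reads can be placed. Of the 31-base words in the transcript of *Gm8210*, 100% also occurred in a transcript of another gene, against 56.2% for *Gm13137* and 46.9% for *Gm6594*. *Eif3s6-ps2*, read in WT, shared 41.4%, and *Ubd*, *Olfr94*, *Apoa2* and *Olig2* shared 0%. A read that fits several places equally well is set aside as not unique, which happened to 5.24 to 5.99% of each library, and the genome outside annotated transcripts was not searched.

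Stretches of *Gm8210* and *Gm6594* are shown over the most similar coding transcript. The bases in capitals, at which they differ, can tell a read of the pseudogene from one of that coding gene. They cannot tell it from a read of another copy that carries the same bases. The most similar coding genes were *Rpl29*, of the large ribosomal subunit, for *Gm8210*, *Hmgn2*, a nucleosome-binding protein, for *Gm6594*, and *Rplp1*, also of the large ribosomal subunit, for *Gm13137*. Bases 1 to 100 of *Gm8210* and bases 126 to 225 of *Gm6594* are printed 5′ to 3′ in the GENCODE M21 transcripts.
Gm8210: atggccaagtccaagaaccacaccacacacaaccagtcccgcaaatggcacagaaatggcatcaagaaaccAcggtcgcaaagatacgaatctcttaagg
Rpl29: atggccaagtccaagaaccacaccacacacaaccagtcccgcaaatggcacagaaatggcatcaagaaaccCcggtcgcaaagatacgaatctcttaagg
Gm6594: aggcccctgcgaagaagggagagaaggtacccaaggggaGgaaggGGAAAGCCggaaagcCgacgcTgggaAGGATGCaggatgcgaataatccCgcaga
Hmgn2: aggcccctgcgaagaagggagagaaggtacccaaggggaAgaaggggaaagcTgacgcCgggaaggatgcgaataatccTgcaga
*Gm8210* and *Rpl29* differed at 3 of 483 bases, C72A, C300T and T423C (the base of *Rpl29*, the position from the 5′ end of *Gm8210*, the base of *Gm8210*), of which the first is shown. *Gm13137* and *Rplp1* differed at 37 bases (89.3% identity). *Gm6594* and *Hmgn2* differed at 8 bases and by 15 bases that *Hmgn2* lacks (91.96% identity), and *Gm10282*, also annotated as coding, matched *Gm6594* equally well.

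*Gm8210* lies on chromosome 1, from 43189156 to 43189638 on the plus strand, wholly inside *Fhl2*, a LIM-domain cofactor on the minus strand. Its reads in *Tet2*-KO were 183, 84 and 57 reads at 10 min, 107, 49 and 91 at 20 min, and 50, 69 and 56 at 40 min. Its reads in WT were 2, 0 and 3, then 2, 0 and 0, then 0, 1 and 0. The first 10 min library stood highest in *Tet2*-KO, and its coefficient of variation of 43.3% was the largest of the 8 genes. The pooled share was 102 times as large in *Tet2*-KO (746 against 8 reads, interval 51.5 to 237).

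The reads of *Gm8210* are uncertain, because 25 other genes matched it at 95% identity or more over at least 90% of its length. One of them, *Gm13841* on chromosome 5, is identical to it over its whole length and was read in both lines, with 10 to 46 reads in WT and 27 to 48 in *Tet2*-KO. The 25 together had 15631 reads in WT and 8922 in *Tet2*-KO, most of them on *Rpl29*. *Rpl29* itself had 1284 to 2090 reads in WT and 675 to 1172 in *Tet2*-KO, the opposite direction from the pseudogene. Its share was lower in *Tet2*-KO (TMM log2 -0.68 ± 0.04 SE, adjusted p = 7.6e-17) and its level per ERCC read was not called (log2 0.01 ± 0.06 SE, adjusted p = 0.85).

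Reads on the host gene of *Gm8210* overlapped between the lines. *Fhl2* had 111 to 234 reads in WT and 94 to 184 in *Tet2*-KO, and its share was not called (TMM log2 -0.11 ± 0.08 SE, adjusted p = 0.24). *Gm29040*, a noncoding RNA gene 60.5 kb beyond on the minus strand, had 28 to 85 reads in WT and 307 to 457 in *Tet2*-KO. It was called higher on both scales (ERCC log2 3.46 ± 0.10 SE, adjusted p = 2.9e-132, and TMM log2 2.77 ± 0.11 SE, adjusted p = 2.5e-21). On the other side *AI597479*, at 73.2 kb, had a lower share (TMM log2 -0.29 ± 0.05 SE, adjusted p = 1.8e-06) and a higher level per ERCC read (log2 0.40 ± 0.07 SE, adjusted p = 1.3e-08).

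*Gm13137* lies on chromosome 4, from 147732788 to 147733132 on the plus strand, among zinc-finger genes. *Tet2*-KO libraries counted 63, 90 and 74 reads at 10 min, 73, 134 and 61 at 20 min, and 86, 92 and 77 at 40 min. WT libraries counted 1 in each 10 min library, then 1, 0 and 0, then 0, 0 and 1. The pooled share was 164 times as large in *Tet2*-KO (750 against 5 reads, interval 70.0 to 507). Its 5 near copies, all on the same chromosome, had 5 reads together in WT and 36 in *Tet2*-KO, where *Gm13137* alone had 750. *Rplp1* had 7121 to 12319 reads in WT and 8027 to 11786 in *Tet2*-KO, and was called higher on both scales (TMM log2 0.34 ± 0.06 SE, adjusted p = 2.7e-06).

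Reads on the nearest genes on either side of *Gm13137* overlapped between the lines. *Zfp534*, a KRAB zinc-finger gene 30.2 kb before it, had 2275 to 4131 reads in WT and 1754 to 3173 in *Tet2*-KO (TMM log2 -0.048 ± 0.021 SE, adjusted p = 0.049). The pseudogene *Gm13136*, 2.35 kb beyond, had 87 to 159 and 95 to 131 reads and was not called with TMM (adjusted p = 0.096). The next pseudogene, *Gm13148*, had a higher share in *Tet2*-KO (TMM log2 1.48 ± 0.12 SE, adjusted p = 4.2e-13). Within 300 kb 7 of 22 tested genes had a higher share and 9 a lower one with TMM, beside 28.6% and 27.9% of all tested genes. With ERCC 16 were higher, beside 80.5%.

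*Gm6594* lies alone on chromosome 17, from 82539260 to 82539545 on the plus strand, with no other counted gene within 300 kb, and its nearest genes, *Gm23400* and *Gm29052*, had 1 and 2 reads in WT and 0 in *Tet2*-KO. In *Tet2*-KO it had 46, 34 and 34 reads at 10 min, 40, 41 and 39 at 20 min, and 47, 31 and 47 at 40 min. In WT its only read was 1 in a 10 min library. The pooled share was 392.5 times as large in *Tet2*-KO (359 against 1 read), and with a single read below it the interval runs from 70.0 to 15550. *Hmgn2* had 836 to 1299 reads in WT and 675 to 1215 in *Tet2*-KO, with a lower share (TMM log2 -0.21 ± 0.05 SE, adjusted p = 4.0e-04) and a higher level per ERCC read (log2 0.48 ± 0.06 SE, adjusted p = 1.8e-14). The nearest tested genes, 801 kb before and 811 kb beyond, were *Slc8a1*, a sodium-calcium exchanger, and *Eml4*, a microtubule-binding protein. *Slc8a1* had a lower share (TMM log2 -0.28 ± 0.10 SE, adjusted p = 0.017) and *Eml4* a slightly higher one (0.044 ± 0.015 SE, adjusted p = 0.013).

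*Eif3s6-ps2* lies on chromosome 18, from 90310868 to 90312190 on the minus strand, and is a copy of *Eif3e*, a subunit of translation initiation factor eIF3, from which it differs at 35 bases (96.0% identity). In WT it had 58, 91 and 33 reads at 10 min, 57, 63 and 34 at 20 min, and 71, 83 and 95 at 40 min. In *Tet2*-KO it had 0, 1 and 1, then 0, 0 and 1, then 0 in all 3. The pooled share was 178 times as large in WT (585 against 3 reads, interval 60.7 to 867). *Eif3e* had 3040 to 3977 reads in WT and 2818 to 3866 in *Tet2*-KO, which overlapped, and its share was slightly higher in *Tet2*-KO (TMM log2 0.11 ± 0.02 SE, adjusted p = 6.5e-06). The nearest genes, *Gm23859* and *Gm25418*, had 0 reads in every library. The nearest tested genes lie 198 kb beyond (*Tmx3*, a disulfide isomerase of the endoplasmic reticulum) and 541 kb before (*Dok6*, an adaptor of receptor tyrosine kinases). The share of *Tmx3* was not called (TMM log2 -0.024 ± 0.020 SE, adjusted p = 0.32). *Dok6* had 15 to 44 reads in WT and 42 to 70 in *Tet2*-KO, with a higher share (TMM log2 0.92 ± 0.15 SE, adjusted p = 4.8e-06).

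**Figure D4:**
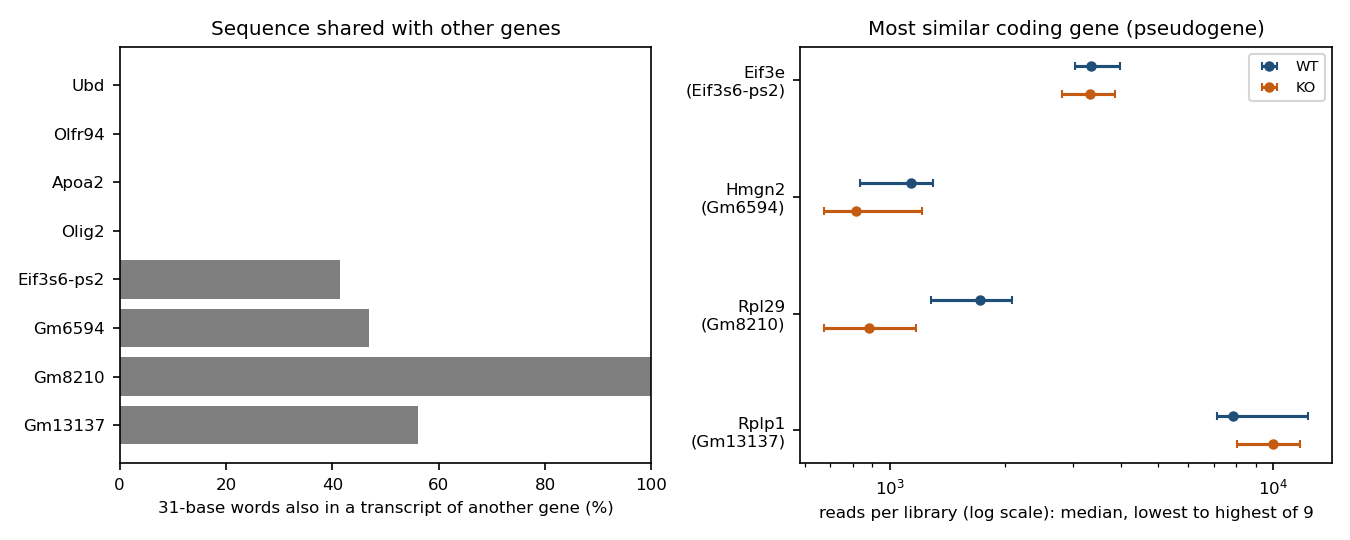
Left, percent of 31-base words in the transcript of each of the 8 genes that also occur in a transcript of another gene. Right, reads per library on the coding gene most like each pseudogene (named below it in brackets), with the median and the lowest and highest of 9 libraries per line on a log axis; the ranges overlap for *Eif3e*, *Hmgn2* and *Rplp1* and are separate for *Rpl29* (1284 to 2090 in WT, 675 to 1172 in *Tet2*-KO).

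Over all 8 genes, 15 distinct neighbours were tested, and 7 further nearest genes had at most 11 reads in any library and were not. With ERCC scaling 9 of the 15 were higher in *Tet2*-KO and 4 lower, or 60.0% and 26.7%, against 80.5% and 4.15% of all tested genes. With TMM 3 were higher and 8 lower, or 20.0% and 53.3%, against 28.6% and 27.9%. The 4 that were lower on both scales, with values given above, were *Olfr753-ps1*, *Fcer1g*, *Gm41492* and *Olig1*, all beside genes read in WT. Of these, *Olfr753-ps1* and *Olig1* passed the filter on low counts only through WT, so they could hardly be called otherwise. With at least 10 counts in every library, 12 neighbours were tested and 2 were lower with ERCC. Of the 7 neighbours of genes read in *Tet2*-KO, 7 were higher with ERCC, and with TMM 2 were higher and 3 lower.

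Labelling time was compared within the line that read each gene. Per ERCC read all 8 genes were called higher at 40 than at 10 min, as were 96.7% of tested genes in WT and 94.7% in *Tet2*-KO, with medians of 2.26 and 1.996 on the log2 scale. *Eif3s6-ps2* rose the most of the 8, by log2 2.88 ± 0.30 (SE, adjusted p = 1.6e-19), and *Ubd* rose by 2.34 ± 0.14 (adjusted p = 5.7e-50). *Olfr94* rose by 1.14 ± 0.25 (adjusted p = 8.4e-06) and *Gm8210* by 1.26 ± 0.26 (adjusted p = 2.4e-06), the least.

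Relative to other genes, *Olfr94* was the only one of the 8 whose share changed by edgeR with TMM. Of the 8, 0 were called higher (1 at an unadjusted p under 0.05 and 0 with DESeq2's own size factors), while 22.8% of tested genes were in WT and 20.1% in *Tet2*-KO, where 16.8% were called lower. *Gm8210* came nearest among the rest, with log2 -0.75 ± 0.31 (SE, adjusted p = 0.057). *Olig2* was at 0.48 ± 0.23 (adjusted p = 0.089) and *Eif3s6-ps2* at 0.62 ± 0.31 (adjusted p = 0.11). *Ubd* was at 0.04 ± 0.10 (adjusted p = 0.74), and *Apoa2*, *Gm6594* and *Gm13137* lay between 0.24 and 0.25.

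**Figure D5:**
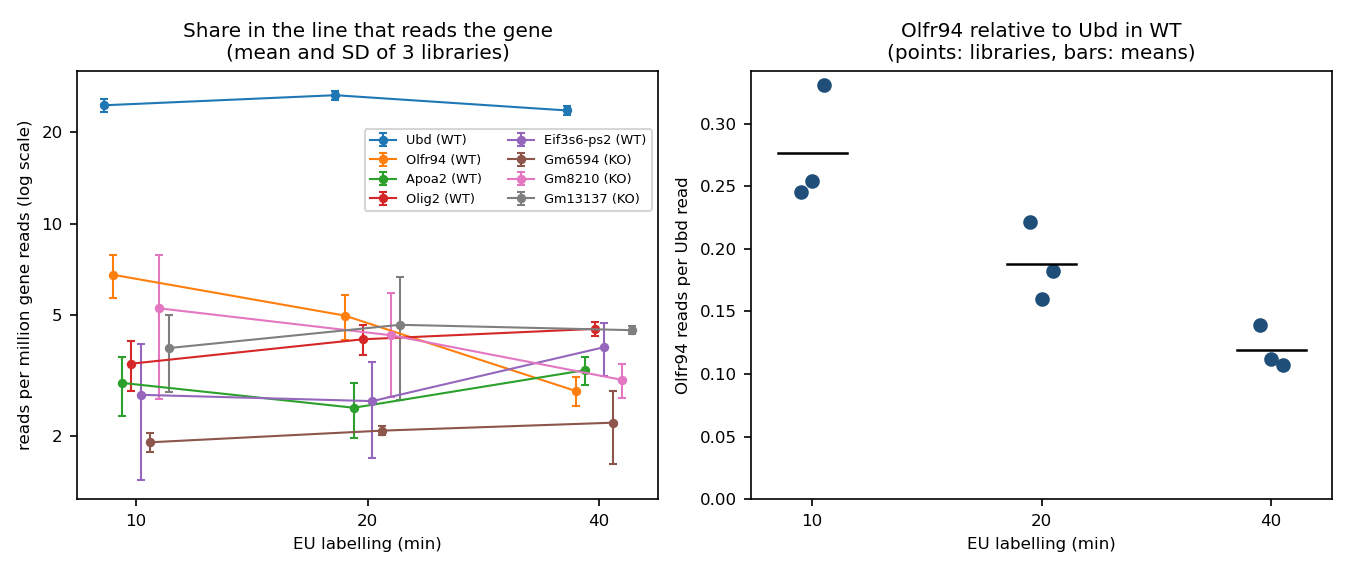
Left, RPM (reads per 1000000 gene reads, log scale; mean and SD of 3 libraries) of each gene in the line that read it, named in brackets, against EU labelling time in min. Right, *Olfr94* reads per *Ubd* read in each WT library, with bars at the means of 0.277, 0.188 and 0.119.

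Other genes met the same description. Of 16036 genes with at least 10 reads in each of the 9 WT libraries, 11 (0.0686%) had at most 3 reads over the 9 *Tet2*-KO libraries together, and 3 of 15990 (0.0188%) the reverse. *Olfr94*, *Eif3s6-ps2* and *Gm6594* were among these 14, and the other 5 of the 8 genes had 4 to 8 reads in the line that did not read them. With at most 10 reads allowed there, the counts were 19 (0.118%) and 9 (0.0563%), and held all 8. The highest shares among the other 9 strict WT genes were those of *Gm49379* (90 to 142 reads against 1 in all), *Gm16554* (24 to 116 against 3), *Gm48398* (29 to 74 against 1), *Gm6828* (25 to 60 against 2), *Gm21297* (25 to 57 against 0) and *Uba1y*, a Y-linked ubiquitin-activating enzyme (22 to 55 against 3). In *Tet2*-KO they were *Gm29231* (14 to 68 against 3) and *AV205837* (14 to 35 against 0).

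Positions of the 28 genes are given as a description. Of the 19 read in WT, 6 lay on chromosome 12 between 18610384 and 24252181, none of them among the 8, and 5 were pseudogenes and 1 annotated as coding. Chromosome 17 held 5 of the 19, which included *Ubd*, *Olfr94*, *Olfr753-ps1* and *H2-M10.4*, a class I-like histocompatibility gene with 11 to 46 reads in WT and 0 in *Tet2*-KO. Of the 9 read in *Tet2*-KO, 3 lay on chromosome 17, between 17703747 and 82539545, and coding genes among the 9 included *Naip5*, an intracellular sensor of bacterial flagellin (69 to 96 reads against 8 in all), and *Olfr750* (41 to 91 against 7). Of all 28, 10 of 19 and 5 of 9 were pseudogenes. The shares of pseudogenes and of these chromosomes among all genes read in 9 libraries are not given here. These counts therefore cannot show an excess.

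In the FAT10 and antigen processing list, 16 of 20 counted genes were tested. With TMM 2 had a higher share in *Tet2*-KO and 6 a lower one, with a median of -0.10, beside 28.6% and 27.9% of all tested genes. With ERCC 13 were higher, beside 80.5%. With TMM *Uba6*, which activates FAT10, was lower by log2 -0.15 (adjusted p = 4.5e-05), *Nub1*, which carries it to the proteasome, was at -0.04 (adjusted p = 0.29), and *B2m*, the light chain of class I molecules, was lower by -0.73 (adjusted p = 2.9e-06). Of the apolipoprotein list without *Apoa2*, 10 of 15 were tested, with 2 higher and 6 lower by TMM and 7 higher and 1 lower by ERCC. With TMM *Apoe* was lower by log2 -0.85 (adjusted p = 1.4e-14) and the cholesterol exporter *Abca1* higher by 0.67 (adjusted p = 3.3e-14), while *Apoa1*, the main partner of apolipoprotein A-II, had at most 4 reads in any WT library.

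Of 14 oligodendrocyte and neural progenitor factors other than *Olig2*, 6 were tested and with TMM 2 had a lower share, *Olig1* and the intermediate filament gene *Nes* (log2 -0.49, adjusted p = 5.8e-10), and 0 a higher one (0 also at an unadjusted p under 0.05 and with DESeq2's own size factors). With ERCC 2 were higher, *Nes* (log2 0.20, adjusted p = 0.0023) and *Pdgfra* (0.49, adjusted p = 0.0010), and 1, *Olig1*, was lower. As said above, *Olig1* passed the filter on low counts only through WT. Over all tested genes 28.6% were higher and 27.9% lower with TMM, and 80.5% and 4.15% with ERCC. *Sox10*, a factor of the oligodendrocyte lineage, had at most 12 reads in WT, and *Sox1* and *Neurog2* were at 0 there. Of 1404 olfactory receptor genes other than *Olfr94*, 765 had no read in any library and 38 were tested. With TMM 16 had a higher share in *Tet2*-KO and 5 a lower one, beside 28.6% and 27.9% of all tested genes. With ERCC 28 were higher and 5 lower, beside 80.5% and 4.15%. These counts include *Olfr753-ps1* and *Olfr750*, which passed the filter on low counts only through WT and only through *Tet2*-KO, respectively. Their calls were therefore hardly open. *Olfr836* had 8 to 39 reads in WT and 107 to 232 in *Tet2*-KO (TMM log2 3.03, adjusted p = 1.8e-20), the opposite direction from *Olfr94*. All 14 eIF3 subunits were tested and 14 were higher with ERCC, beside 80.5% of all tested genes. With TMM 8 had a higher share and 0 a lower one (0 also at an unadjusted p under 0.05 and with DESeq2's own size factors), beside 28.6% and 27.9%. The share of *Eif3l* was higher by TMM log2 0.34 (adjusted p = 7.2e-12).

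Summed shares of markers of other cell types overlapped between the lines, though single markers differed. Hepatocyte and visceral endoderm markers summed to 13.75 to 27.4 RPM in WT and 10.4 to 18.04 in *Tet2*-KO, where *Alb* was at 0 in every WT library and *Afp* at 4 reads or fewer. The most read of them, *Hnf4a*, a nuclear receptor of liver and endoderm, had 176 to 418 reads in WT and 101 to 191 in *Tet2*-KO (TMM log2 -0.91, adjusted p = 3.8e-12). Of the 4 of them tested, 3 had a lower share with TMM, which included *Gata4* (-0.38, adjusted p = 0.0011) and *Apob* (-0.71, adjusted p = 0.0020), while with ERCC 2 were higher and 1 lower. Of 5 tested feeder fibroblast markers 2 had a higher share, *Col3a1* (TMM log2 1.09, adjusted p = 0.0015) and *Col1a1* (0.44, adjusted p = 0.0010), and with ERCC 4 were higher. Of 5 tested oligodendrocyte lineage markers 2 had a lower share with TMM, *Olig1* and *Mbp* (log2 -0.37, adjusted p = 3.4e-09). With ERCC 4 were higher and 1, *Olig1*, was lower. *Olig1* passed the filter on low counts only through WT, so it could hardly be called otherwise. Of 2 tested lymphoid and myeloid markers 1 had a lower share, *Cd3e* (TMM log2 -0.79, adjusted p = 1.3e-05), and with ERCC 1 was higher. Of 9 tested stem cell markers 2 had a higher share with TMM and 6 a lower one. With ERCC 6 of these were higher and 1, *Zfp42*, was lower. Over all tested genes 28.6% were higher and 27.9% lower with TMM, and 80.5% and 4.15% with ERCC. Oligodendrocyte lineage markers summed to 31.6 to 58.3 and 28.3 to 45.3, feeder fibroblast markers to 5.08 to 30.0 and 7.715 to 20.97, and lymphoid and myeloid markers to 4.12 to 8.07 and 3.75 to 5.83. Their part in the reads of the 8 genes was not tested. In these bulk libraries fewer cells that read a gene and less RNA per cell cannot be told apart.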

How the data were processed

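EU-labelled RNA from both mES lines was sequenced in 18 libraries from a stranded total RNA kit. The authors trimmed reads with Trimmomatic 0.39, aligned them with HISAT2 2.2.1 to mm10, GENCODE M19 and ERCC sequences, counted reads per gene with HTSeq 0.12.4 and deposited these counts without normalization. The HTSeq options are not given in the sources used here. From the values, 3547 of 3559 genes inside an intron of a same-strand gene had 0 reads, while 1063 of 5462 genes inside an opposite-strand gene had 180 or more, so the counts behave as stranded counts over whole gene bodies. Genes at 0 inside another gene, such as *Sox2*, are uncertain for this reason, as are genes with near-identical copies.

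Names and positions came from GENCODE M21. Genes were kept by edgeR's filterByExpr with a minimum count of 10 (19910 genes). The test was the quasi-likelihood test of edgeR 4.0.16 in R 4.3.3 on one fit of all 18 libraries, with library sizes set to ERCC totals and p-values adjusted by Benjamini-Hochberg (threshold 0.05), and the genotype contrast was averaged over the 3 labelling times. TMM scaling was reported beside it. SE is the absolute log2 difference divided by the square root of F. DESeq2 1.42.0 was an alternative, with filters, a replicate block, single labelling times and omitted libraries. Similar transcripts were found with blastn 2.17.0. The fits were tested on simulated data. Replicates were compared first: every pair within a group differed by more than counting noise, the chi-square averaged over genes being 1.66 to 5.52.

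The genes named were the 8 members, all overlapping genes and the nearest gene and nearest tested gene on each side, the coding gene most like each pseudogene, up to 6 further genes per line by share that met the one-line description, *Tet2*, and up to 3 genes of each list. *Gabbr1*, *Fcgr2b*, *Fcgr3*, *Fcgr4*, *Sdhc*, *Gm15966*, *Ifnar1*, *Ifnar2*, *Il10rb*, *Gm49625*, *Gm49626*, *Gm13148*, *Gm13841*, *H2-M10.4*, *Gm18737* and genes named from the lists for their role or value were added after their values were seen. The members and lists were chosen with earlier results of these data known. The 300 kb window was chosen after the values were seen. The sequence of *Gm13137* is not reported here.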

Additional observations from a re-analysis of the deposited data

Results flagged for a closer look

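Groups of 3 replicates were too small to look for single libraries that stand apart. For the 15 tested neighbours and the coding genes most like the 4 pseudogenes, the log2 difference between *Tet2*-KO and WT was compared between 10 and 40 min of labelling. In the same edgeR fit 3 genes differed with ERCC scaling. The share of all tested genes that differed is not given here, so this count cannot show an excess.

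*Tmx3*, the nearest tested gene beyond *Eif3s6-ps2*, was higher in *Tet2*-KO by log2 0.99 at 10 min and 0.60 at 40 min, a difference of -0.39 (adjusted p = 0.021). *Zfp534*, the gene before *Gm13137*, was higher by 0.91 at 10 min and 0.56 at 40 min, a difference of -0.36 (adjusted p = 0.033). Over all tested genes the median of this difference was -0.29 with ERCC scaling. With TMM neither was called (adjusted p = 0.20 for *Tmx3* and 0.45 for *Zfp534*).

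*Rplp1*, the coding gene most like *Gm13137*, was higher by log2 1.52 at 10 min and 0.62 at 40 min, a difference of -0.89 (adjusted p = 1.6e-08). It was also called with TMM, by -0.61 (adjusted p = 0.0026). The cause was not tested.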

How the results depend on the processing

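Scaling mattered most. With TMM, and with DESeq2's own size factors, the counts of neighbours called higher and lower were 3 and 8, in place of 9 and 4 with ERCC. With at least 10 counts in every library 12 neighbours were tested and the count called lower was 2. Other filters, DESeq2 with ERCC size factors and single labelling times left these counts between 7 and 9 and at 4. Leaving out each library in turn gave 9 to 9 higher and 4 to 4 lower, and 8 to 8 of the 8 genes higher at 40 than at 10 min. With TMM 0 of the 8 were called higher, and *Olfr94* (log2 -1.17) and *Gm8210* (-0.75) changed sign, as *Olfr94* did for 40 against 20 min with ERCC (-0.073).

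Replicate numbers did not pair the samples: deviations of same-numbered libraries correlated between -0.23 and 0.20 (median -0.0037 over 45 pairs). The replicate block left 9 higher and 4 lower neighbours and 8 genes higher at 40 min, and it changed no call of a named gene.

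The sign of the difference between the lines changed from ERCC scaling to TMM and to DESeq2's own size factors for *Gm20429* (-0.26 and -0.26), *Tomm40l* (-0.61 and -0.62), *Tmx3* (-0.024 and -0.029), *Slc8a1* (-0.28 and -0.28), *Fhl2* (-0.11 and -0.11), *AI597479* (-0.29 and -0.30), *Zfp534* (-0.048 and -0.053), *Hmgn2* (-0.21 and -0.22) and *Rpl29* (-0.68 and -0.69), because these scales set the median gene at 0. At 20 min alone *Tomm40l* was at -0.09 and *Rpl29* at -0.13, and *Rpl29* was at -0.052 at 40 min alone. *Rpl29* was at 0.01 with ERCC scaling and between -0.015 and 0.042 without single libraries. Values of called neighbours moved by over 1.5 times, with the call kept, for *Olig1* (to -5.49 without *Tet2*-KO 20 min replicate 2, -5.30 without *Tet2*-KO 40 min replicate 2, -2.76 at 20 min alone and -5.17 at 40 min alone), *Olfr753-ps1* (-5.06 without *Tet2*-KO 40 min replicate 1) and *Fcer1g* (-2.57 at 20 min alone).

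Genes read in one line numbered 11 in WT and 3 in *Tet2*-KO. Requiring at least 50 reads gave 2 and 0, and at least 20 gave 1 in *Tet2*-KO. At least 5 gave 8 in *Tet2*-KO. Requiring 0 reads in the other line gave 3 and 1, and allowing 10 gave 19 and 9. Widening the window to 1000 kb, chosen after seeing the data, changed the share of genes called lower near *Apoa2* to 63.8% of 47. Within 1000 kb of *Ubd* 8 of 24 tested genes had a higher share with TMM and 8 a lower one, from log2 -7.26 to 6.25. Over all tested genes 28.6% were higher and 27.9% lower. Depth limits the 8 genes, 7 of which rest on under 200 reads per library in the line that read them.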
